A study of Mus musculus with 24 samples.

Results

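Fast excitatory transmission in the cortex runs through glutamate-gated ion channels of the AMPA and kainate families. Their 9 subunit genes were followed here by symbol: the 4 AMPA subunits Gria1, Gria2, Gria3 and Gria4, and the 5 kainate subunits Grik1, Grik2, Grik3, Grik4 and Grik5. All 9 were listed in each of the 4 deposited tables, out of 14769 genes listed in any of them. Cortical RNA was taken from males, 3 to 4 months old, after transient middle cerebral artery occlusion (tMCAo), a mouse stroke model in which a filament blocks the artery that feeds much of the cortex. Occlusion lasted 1 h and was followed by 1 day of reperfusion. Animals of the KO groups lacked ciRS-7, the circular RNA of the Cdr1as locus, which binds miR-7, and those of the WT groups were wild type. The strain label of all 24 libraries, WT and KO alike, is C57BL/6N-Cdr1asem1Nikr. Each animal gave a library marked CL and another marked PI, marks the labels do not spell out, which made 4 groups of 6 libraries: WT and KO, each from CL and from PI. No unoperated animals were analysed here. The stated aim of the study was to compare WT and KO expression after the stroke, and PI was also compared with CL within each genotype.

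AMPA receptors are tetramers that open within milliseconds of glutamate release and carry most of the fast current at cortical excitatory synapses. Whether Gria2 protein is present sets how readily calcium passes through the channel, because its messenger RNA is edited at the pore by the deaminase encoded by Adarb1. Kainate receptors are built from the subunits of Grik1, Grik2 and Grik3, which can form channels by themselves, together with Grik4 and Grik5, which need one of the former as a partner. They act on both sides of the synapse, where they modulate transmitter release and neuronal excitability.

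The 9 genes share the stretch of coding sequence that lines the pore, and the pore codon that is edited in Gria2 lies within it. It is shown because editing of this codon, known also for Grik1 and Grik2, is not visible in the gene sequence. Each line gives 33 coding bases from the GRCm38 reference, 5′ to 3′ on the coding strand, with the codon at this position in capitals:

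Gria1: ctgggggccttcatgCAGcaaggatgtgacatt

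Gria2: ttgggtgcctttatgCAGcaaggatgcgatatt

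Gria3: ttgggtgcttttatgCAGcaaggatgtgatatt

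Gria4: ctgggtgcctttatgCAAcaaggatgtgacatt

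Grik1: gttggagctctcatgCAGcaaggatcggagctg

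Grik2: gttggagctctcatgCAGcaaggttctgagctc

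Grik3: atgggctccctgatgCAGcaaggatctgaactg

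Grik4: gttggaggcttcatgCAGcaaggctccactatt

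Grik5: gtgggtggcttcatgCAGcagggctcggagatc

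The codon reads CAG in 8 of the genes and CAA in Gria4, and both encode glutamine. In Gria2 it lies in an exon at chr3:80706911-80706913, minus strand. Over the 33 bases Gria2 and Gria3 were identical at 31, Grik1 and Grik2 at 30, and Gria2 and Grik2 at 21. The deposited values count reads per gene, so they measure the amount of each subunit's RNA and not its editing.

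The tables hold log2 CPM, the logarithm of a gene's reads relative to all reads of its library, and the values of each gene had been drawn in towards the middle of each group of 6 before deposit. The inner 4 of the 6 values could be recovered, and the lowest and highest could not. Ranges of single genes below therefore run from the second lowest to the second highest library of a group. Depth read from the spacing of low values was 3.75 to 10.5 megareads per library, with a median of 6.91. The library of animal KO6 from CL was the shallowest, at 3.83 and 3.75 megareads in its 2 tables, where 90.8% and 89.5% of its low values were whole reads, and that of KO5 from CL was the deepest. Cdr1as had 3809 CPM in the second highest CL WT library and 0.148 CPM in the second highest CL KO library, under the 3-read limit of 0.286 to 0.8 CPM. In PI the same values were 3004 CPM in WT and 0.169 CPM in KO, which matched the genotype labels. Tests were limma-moderated trimmed-mean tests, not paired by animal, with Benjamini-Hochberg adjustment over all genes of a table. A gene is said to have risen or fallen at an adjusted p under 0.05.

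Levels of different genes were set side by side as CPM per kilobase of exon (CPM/kb), in CL WT. Gria2 had the highest level, 127 CPM/kb, with a range of 122 to 130. Gria1 had 53.2 CPM/kb (range 50.2 to 55.5) and Gria3 51.1 (range 50 to 52.9), which overlapped each other. Gria4, which is abundant in interneurons, had 29.5 CPM/kb, below the other AMPA subunits with no overlap. Every kainate subunit lay below every AMPA subunit. Grik2 and Grik5 were the most abundant kainate genes, at 10.1 CPM/kb (range 9.85 to 10.7) and 9.54 CPM/kb (range 9.03 to 10.4), and they overlapped. Grik3 followed at 5.43 CPM/kb, and Grik4 and Grik1 were lowest at 1.99 and 1.95 CPM/kb with overlapping ranges. At the median depth, the CL WT medians correspond to 13759 reads for Gria2 but only 82.5 for Grik4 and 89.1 for Grik1, which limits the precision of the last 2.

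Summed over each family, the AMPA genes exceeded the kainate genes 8.98-fold in CL WT and 8.94-fold in CL KO, per kilobase of exon. The ratio was 7.22 in PI WT and 7.71 in PI KO. Gria2 made up 48.7% of the AMPA sum in CL WT, 48.3% in PI WT, and 48% in both CL KO and PI KO. Within the kainate family the order of the top 2 by mean level differed by side, with overlapping ranges in CL. In PI WT the level of Grik5, 11.1 CPM/kb (range 9.53 to 12), lay above that of Grik2, 9.04 CPM/kb (range 8.77 to 9.27), with no overlap. In PI KO the level of Grik5 was 10.2 CPM/kb and that of Grik2 8.55, again without overlap. In CL KO they were 9.38 (range 8.69 to 9.72) and 9.53 (range 8.75 to 9.91), which overlapped. The order of Gria1 and Gria3 depended on the length used: over the longest transcript Gria3 had 96.7 CPM/kb and Gria1 58 in CL WT. Over that length the Grik5 mean also lay above that of Grik2 in PI WT and PI KO, but their ranges overlapped in both groups.

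**Figure D1:**
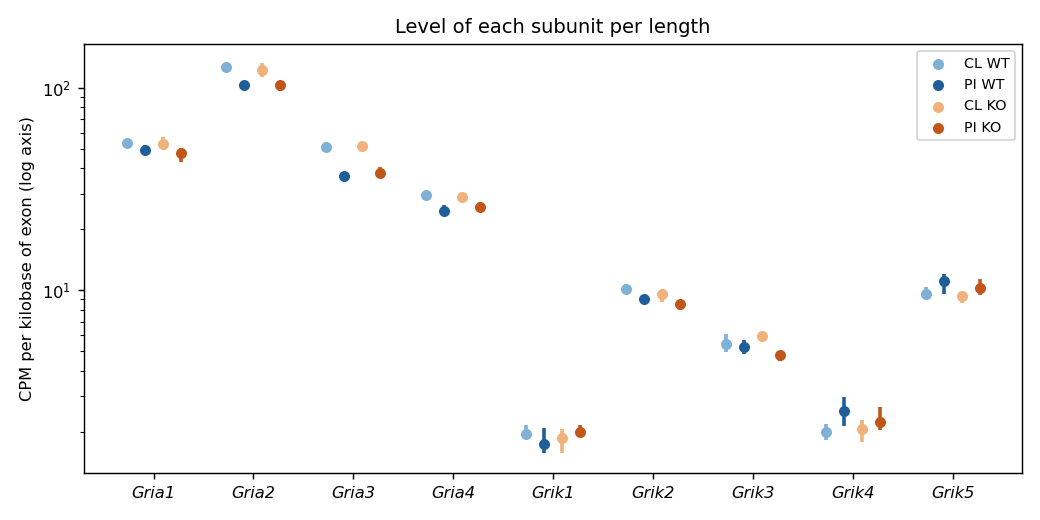
CPM per kilobase of exon (log axis) of each subunit in the 4 groups; points are means of the inner 4 of 6 libraries and bars run from the second lowest to the second highest library. The 4 AMPA genes lie above the 5 kainate genes in each group, with Gria2 highest (127 CPM/kb in CL WT).

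In WT cortex, 3 of the 4 AMPA subunits were lower in PI than in CL, and no kainate subunit passed the test. Gria3 fell most, to 0.721 of its CL level, followed by Gria2 at 0.813 and Gria4 at 0.838. Gria1, the subunit whose synaptic insertion is best known from long-term potentiation, was at 0.923 and did not pass. In these bulk samples, fewer cells that express a subunit and less of its RNA per cell cannot be told apart. The 3 subunits lower of 9 compare with 5.4% of all 14489 genes lower and 10.6% called in either direction.

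Gria3, on the X chromosome at chrX:41400854-41678601, had a range of 493 to 521 CPM in CL WT with a median of 500. In PI WT it ranged from 355 to 367 CPM with a median of 365, so the groups were far apart and the PI libraries lay close together. The log2 fold change was -0.47 (SE 0.047, 95% interval -0.57 to -0.37, n = 6 and 6, limma-moderated adjusted p = 7.46e-05). Gria2, at chr3:80681450-80802835, ranged from 1899 to 2026 CPM in CL WT (median 1991) and from 1545 to 1662 CPM in PI WT (median 1612). Again the groups did not overlap, and the log2 fold change was -0.30 (SE 0.053, 95% interval -0.41 to -0.18, limma-moderated adjusted p = 0.00329). Gria4, at chr9:4417896-4796234, ranged from 176 to 191 CPM in CL WT (median 189) and from 147 to 166 CPM in PI WT (median 156). Its groups also did not overlap, although the PI libraries spread more widely, and its log2 fold change was -0.26 (SE 0.065, 95% interval -0.40 to -0.12, limma-moderated adjusted p = 0.0237). The call of Gria4 was lost when the prior variance was fitted without a trend on expression (adjusted p = 0.0881).

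Gria1 ranged from 303 to 336 CPM in CL WT and from 284 to 317 CPM in PI WT, and these ranges overlapped. Its log2 fold change of -0.12 (95% interval -0.25 to 0.018) had a limma-moderated adjusted p of 0.287. The interval of Gria1 lay wholly above that of Gria3, but the difference between subunits was not tested.

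The kainate genes did not share a direction. Grik2, the principal channel-forming kainate subunit of forebrain, ranged from 130 to 142 CPM in CL WT and from 116 to 123 CPM in PI WT. These ranges did not overlap, yet the log2 fold change of -0.17 (SE 0.056) missed the threshold with a limma-moderated adjusted p of 0.0831. In all, 4 of the 9 subunits had lower PI ranges without overlap, beside 13.1% of all genes. Grik4, a partner subunit with high affinity for kainate, had a range of 10.8 to 13 CPM in CL WT and 12.7 to 17.6 CPM in PI WT, which overlapped slightly. Its log2 fold change was 0.35 (SE 0.14, 95% interval 0.041 to 0.65, limma-moderated adjusted p = 0.15). With PI and CL of the same animal as a replicate block, the same difference had an SE of 0.12 and passed the test (adjusted p = 0.0389). Grik5, the other partner subunit, had a log2 fold change of 0.22 (SE 0.099, 95% interval 0.0059 to 0.43, adjusted p = 0.196 by the same limma-moderated test), with overlapping ranges of 46.7 to 53.7 CPM in CL WT and 49.3 to 61.9 CPM in PI WT. Grik1 and Grik3 had log2 fold changes of -0.16 and -0.055, with limma-moderated adjusted p of 0.515 and 0.789. At an unadjusted p under 0.05, 3 of the 5 kainate genes passed, Grik2, Grik4 and Grik5, beside 23.9% of all genes. Limma on the deposited values, whose spread is understated, called the same 3 genes and 6459 of all 14489 genes.

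**Figure D2:**
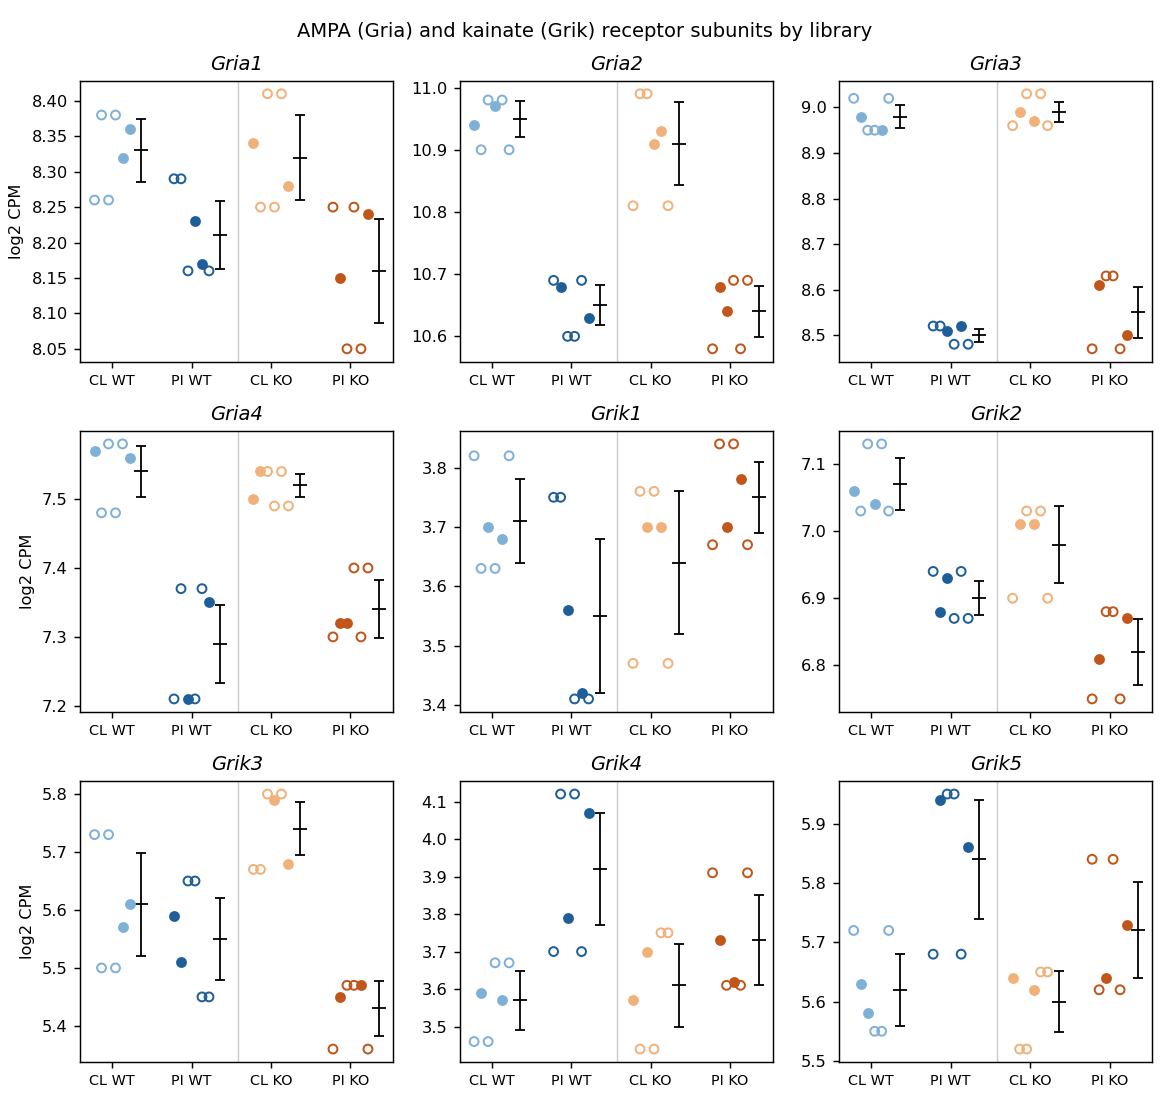
log2 CPM of each subunit in the 24 libraries by group, as deposited; open circles are values that the authors' processing drew in to the group's quartiles, and bars are the mean of the inner 4 libraries ± SE. Each panel has its own axis. For Gria2, Gria3, Gria4 and Grik2 the PI values as deposited lie below all CL values in both genotypes. The recovered ranges of Grik2 overlap in KO.

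In KO cortex, Gria3, Gria2 and Grik3 were lower in PI than in CL, and no subunit was higher. Gria3 was at 0.739 of its CL level, Gria2 at 0.832 and Grik3 at 0.809. These 3 of 9 subunits stand beside 4.94% of all 14338 genes lower and 10% called in either direction.

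Gria3 ranged from 499 to 526 CPM in CL KO, with a median of 505, and from 354 to 400 CPM with a median of 375 in PI KO. The groups were apart, as in WT, and the log2 fold change was -0.44 (SE 0.060, 95% interval -0.57 to -0.31, limma-moderated adjusted p = 0.000814). Gria2 ranged from 1755 to 2060 CPM in CL KO, with a median of 1938, and from 1505 to 1650 CPM with a median of 1620 in PI KO. The CL KO libraries spread more widely than those of CL WT but stayed above PI KO, with a log2 fold change of -0.26 (SE 0.070, 95% interval -0.42 to -0.11, limma-moderated adjusted p = 0.0312). Grik3, a channel-forming kainate subunit of low agonist affinity at chr4:125490700-125714173, had log2 CPM of 5.67 to 5.81 in CL KO, with a median of 5.73, and of 5.33 to 5.47 with a median of 5.46 in PI KO. All recoverable PI KO values lay below all recoverable CL KO values, and the log2 fold change was -0.31 (SE 0.075, 95% interval -0.47 to -0.14, limma-moderated adjusted p = 0.0231). Without a trend in the prior variance, the calls of Gria2 (adjusted p = 0.114) and Grik3 (adjusted p = 0.0629) were lost, and that of Gria3 was kept.

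Gria4 had a CL KO range of 179 to 186 CPM and a PI KO range of 157 to 173 CPM, which did not overlap, but its log2 fold change of -0.17 (SE 0.057) missed the threshold with a limma-moderated adjusted p of 0.0704. Ranges without overlap, all lower in PI, were found for 4 of the 9 subunits, beside 13.4% of all genes. Gria1 and Grik2 had log2 fold changes of -0.16 each, with limma-moderated adjusted p of 0.234 and 0.192. Grik1, Grik4 and Grik5 had 0.10, 0.12 and 0.12, with 95% intervals that included 0 and the same kind of adjusted p of 0.684, 0.658 and 0.452.

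The signs of the 4 AMPA genes were negative in both genotypes, also when fold changes were centred on the median gene. Their median log2 fold change was -0.28 in WT and -0.22 in KO, beside 0.011 and -0.00068 over all genes. The 5 kainate genes had medians of -0.055 and 0.10. By sign, 7 of the 9 subunits were lower in PI in WT and 6 in KO, beside 47.7% and 50.1% of all genes.

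**Figure D3:**
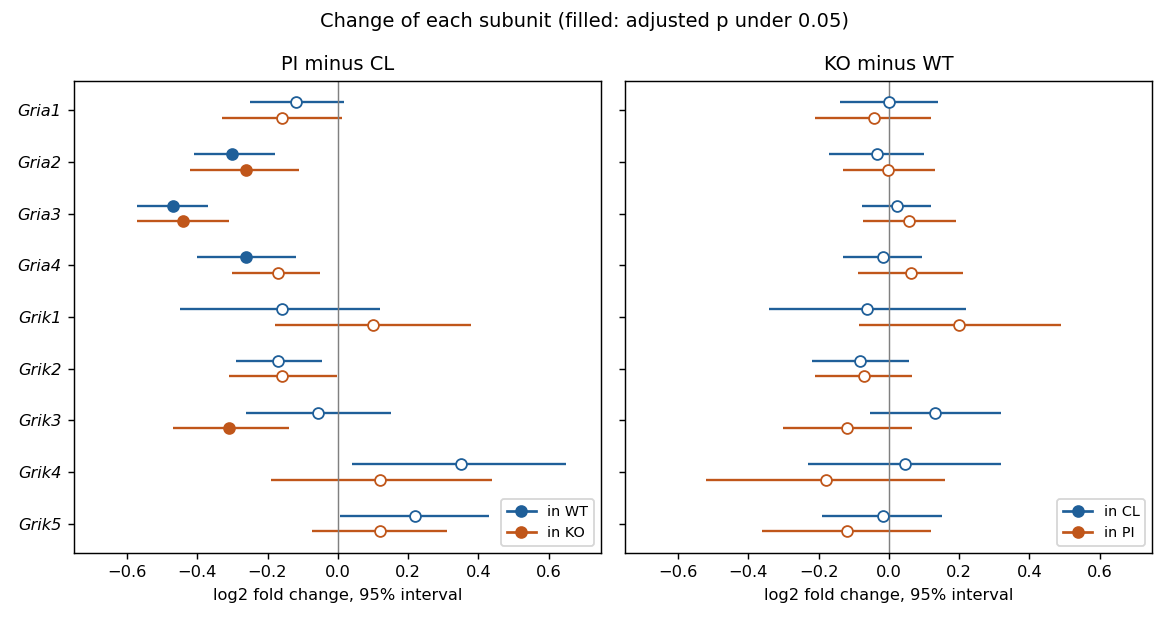
log2 fold change with 95% interval of each subunit, PI minus CL in each genotype (left) and KO minus WT in each side (right); filled points passed an adjusted p of 0.05. Gria2 and Gria3 are filled in both genotypes on the left, and no point on the right is filled.

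The PI minus CL difference of KO was then set against that of WT (the interaction, KO minus WT). It passed the moderated trimmed-mean test for 0 of the 9 subunits, and for 0% of 14211 genes. None of the 9 had an unadjusted p under 0.05, which 4.55% of all genes had. For Gria2 and Gria3 the difference was 0.034 and 0.035 on the log2 scale, with 95% intervals of -0.15 to 0.22 and -0.12 to 0.19. For Gria4, called in WT and not in KO, it was 0.081 (95% interval -0.097 to 0.26). For Grik3, called in KO and not in WT, it was -0.25 (SE 0.12, 95% interval -0.51 to 0.011), so the responses of these genes are not shown to differ between genotypes. Plain limma on the deposited values, whose spread is understated, called Grik3 in this test (adjusted p = 0.0133), and with the animal as a replicate block it called Grik3 (adjusted p = 0.00636) and Grik1 (adjusted p = 0.0404).

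Loss of ciRS-7 was compared directly within each side, and 0 of the 9 subunits passed in CL or in PI. Over all genes, 0.0279% were called in CL and 0.0208% in PI by the moderated trimmed-mean test. At an unadjusted p under 0.05 stood 5.73% and 5.75% of genes but none of the subunits, and limma on the deposited values called none of them either. Gria2 had a mean of 10.91 log2 CPM in CL WT (SE 0.028) and 10.88 in CL KO (SE 0.068). In PI its mean was 10.68 in WT (SE 0.031) and in KO (SE 0.041), a difference of -0.0017 with a 95% interval of -0.13 to 0.13. The intervals of Gria2, Gria3 and Gria4 all lay between -0.17 and 0.21 on the log2 scale in both sides. Gria1 had intervals of -0.14 to 0.14 in CL and -0.21 to 0.12 in PI. Among the kainate genes, Grik3 differed by 0.13 in CL (95% interval -0.054 to 0.32) and -0.12 in PI (95% interval -0.30 to 0.065). The widest intervals belonged to the 2 genes with the fewest reads, Grik4 in PI at -0.52 to 0.16 and Grik1 in PI at -0.086 to 0.49.

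Because ciRS-7 binds miR-7, the subunits were searched for the site that miR-7 could pair with. The 2 mature forms in RefSeq (GRCm38.p6) share their seed, bases 2 to 8, given in capitals:

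miR-7a-5p: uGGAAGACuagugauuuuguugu

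miR-7b-5p: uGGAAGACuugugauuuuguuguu

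The DNA match to this seed, GTCTTCC on the transcript strand, occurred in the 3′ UTR of 1 of the 9 subunits, Grik2, beside 14.7% of 12641 listed genes. The Grik2 match, in capitals, stands in this stretch of its 3′ UTR:

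Grik2: taatacttcattGTCTTCCtttcttc

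It lies at chr10:49096124-49096130 on the minus strand of GRCm38, bases 4978 to 4984 of a 3′ UTR of 6275 bases. Gria2, with a 3′ UTR of 7268 bases, had no match. Grik2 had KO minus WT differences of -0.082 in CL (95% interval -0.22 to 0.058) and -0.072 in PI (95% interval -0.21 to 0.066), with limma-moderated adjusted p of 0.929 and 0.91. A seed match is a description of the sequence, and binding was not measured.

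AMPA receptors are shipped and held at synapses by auxiliary subunits and binding partners. Of 13 auxiliary subunit genes, 12 were listed, and their median log2 fold change from CL to PI was -0.15 in WT and -0.16 in KO. Shisa7, an auxiliary transmembrane protein, fell in both genotypes, by 0.32 (limma-moderated adjusted p = 0.024) and 0.38 (0.0434) on the log2 scale. Cacng3, a transmembrane AMPA receptor regulatory protein (TARP), fell in KO by 0.48 (limma-moderated adjusted p = 0.0352) and had a log2 fold change of -0.37 in WT (adjusted p = 0.065). The remaining listed auxiliary genes, with the TARP Cacng2 and the cornichons Cnih2 and Cnih3 among them, did not pass in either genotype.

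Of 20 genes for assembly, trafficking and anchoring, 1 rose and 4 fell in each genotype, beside medians of -0.047 in WT and -0.098 in KO. Nptx2, a secreted pentraxin that clusters AMPA receptors and is induced by neuronal activity, rose by 1.19 in WT (limma-moderated adjusted p = 6.8e-05) and 1.04 in KO (0.0106). Frrs1l, which assists AMPA receptor assembly in the endoplasmic reticulum, fell by 0.25 (adjusted p = 0.0348) and 0.32 (0.00813). Lrrtm4, a postsynaptic adhesion protein, fell by 0.24 (adjusted p = 0.0483) and 0.25 (0.0442). The adhesion gene Lrrtm3 fell in WT by 0.34 and had a log2 fold change of -0.35 in KO (adjusted p = 0.0542). The scaffold gene Dlg1, whose protein binds the Gria1 tail, fell in WT by 0.22 and had -0.13 in KO (adjusted p = 0.166). The secreted glycoprotein gene Olfm1 fell in KO by 0.24 and had -0.14 in WT (adjusted p = 0.0892), and the pentraxin receptor gene Nptxr fell in KO by 0.28 and had -0.045 in WT (adjusted p = 0.868). None of these 4 genes passed the test of the difference between genotypes (adjusted p of 0.992 to 0.999), nor had an unadjusted p under 0.05 in it. Without a trend in the prior variance, 2 of the 5 calls in WT and 0 of the 5 in KO were left in this group, and 0 calls among the auxiliary subunits. With the animal as a replicate block, 2 auxiliary subunits instead of 1 passed in WT.

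Of 6 genes set down as kainate receptor partners, 5 were listed. Actl6b is among the 5 and in the counts below, but its protein is not a known kainate receptor partner. C1ql3, a secreted synaptic protein of the complement C1q-like family, rose by 0.27 in WT (limma-moderated adjusted p = 0.0293), a call lost without the trend, and had a log2 fold change of -0.0014 in KO (adjusted p = 0.995). It did not pass the test of the difference between genotypes. Its KO minus WT difference was 0.31 in CL (limma-moderated adjusted p = 0.476) and 0.033 in PI (0.98). The auxiliary subunit gene Neto2 had -0.29 in WT (adjusted p = 0.0561). With PI and CL of an animal as a replicate block, 2 of the 5 genes passed in WT, 1 in each direction. Which form of the block gave this count is not stated here. In KO 0 of 5 passed, and the smallest unadjusted p was that of Klhl24, 0.179, then Actl6b, 0.283. Plain limma on the deposited values, whose spread is understated, called 1 of the 5 and 6666 of all 14338 genes. Adarb1, which edits Gria2, had log2 fold changes of -0.11 in both genotypes, and Adarb2 had -0.22 and -0.20. None of the 3 editing enzyme genes passed the moderated trimmed-mean test in either genotype or had an unadjusted p under 0.05, and limma on the deposited values called 2 in each. Rest, a repressor known to bind a silencer near Gria2, had a log2 fold change of 0.083 (adjusted p = 0.737) in WT cortex and 0.19 (0.438) in KO cortex.

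**Figure D4:**
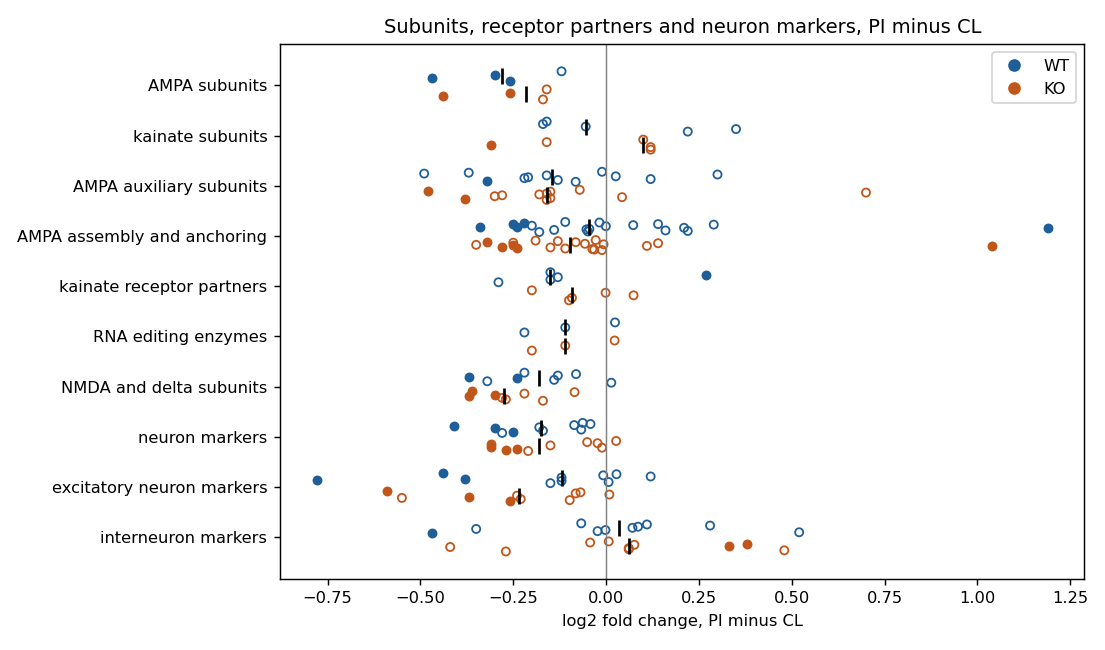
log2 fold change, PI minus CL, of the AMPA and kainate subunits and of the lists of partner, editing, NMDA receptor and neuron marker genes; each point is a gene, filled where adjusted p was under 0.05, and vertical bars are list medians. Nptx2 is the filled point at 1.19 (WT) and 1.04 (KO); the AMPA medians are -0.28 and -0.22.

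The subunits were not alone in being lower in PI, among neuronal or among glial genes. Of 8 listed NMDA and delta receptor genes, 2 fell in WT and 3 in KO, with medians of -0.18 and -0.27. Grin2a and Grin2b, the main modulatory NMDA receptor subunits of cortex, fell in both genotypes, by 0.37 and 0.24 in WT and by 0.30 and 0.37 in KO, and the delta receptor gene Grid1 fell in KO by 0.36. Of 10 neuron markers, 10 had a negative sign in WT and 9 in KO, with a median of -0.18 in both, and 3 and 4 fell. Marker sums here and below add the deposited, drawn-in values of each library. They run from the lowest to the highest of 6 libraries, and their spread is understated. The sum of the 10 neuron markers ranged from 8885 to 9422 CPM in CL WT and 7606 to 8357 in PI WT. In KO it ranged from 8702 to 9118 in CL and 7413 to 8139 in PI. All 10 were listed in the tables, among them the pan-neuronal genes Rbfox3, Map2 and Snap25. Of 10 excitatory neuron markers, 3 fell in each genotype, Camk2a, Nrgn and Rorb in WT and Camk2a, Nrgn and Tbr1 in KO. By sign 7 were negative in WT and 9 in KO, with medians of -0.12 and -0.24. Slc17a7, Neurod2, Cux2 and Fezf2 had log2 fold changes of -0.0077 to 0.12 in WT. The sum of the 10 ranged from 2515 to 2722 CPM in CL WT and 2018 to 2171 in PI WT. In KO it ranged from 2583 to 2745 in CL and 2001 to 2120 in PI. Interneuron markers summed to 715 to 780 CPM in CL WT and 731 to 842 in PI WT, which overlapped. In KO they summed to 736 to 768 CPM in CL and 775 to 840 in PI, without overlap of these narrowed ranges. Of 10 interneuron markers, Vip fell in WT (limma-moderated adjusted p = 0.0475) and had a log2 fold change of -0.27 in KO (0.132). Gad2 (0.00652) and Npy (0.0139) rose in KO by the same test. In WT they had log2 fold changes of 0.28 (0.06) and 0.071 (0.725). Of 9 astrocyte markers, 4 fell and 1 rose in WT, with a median of -0.22, and 2 fell and 1 rose in KO, with a median of -0.13. Their sum ranged from 8327 to 8840 CPM in CL WT and 7124 to 7571 in PI WT, and in KO from 8383 to 8885 in CL and 6932 to 7684 in PI. This sum mostly follows 1 gene, Slc1a2, with a mean of 12.71 log2 CPM in CL WT, above Glul at 9.99. Of 9 oligodendrocyte markers, 8 had a negative sign in WT, with a median of -0.36, and 2 fell, Cnp and Mal. In KO 6 of the 9 were negative, with a median of -0.13, and 0 passed the moderated trimmed-mean test. Only Mag had an unadjusted p under 0.05 in it, and Mag was higher in PI, with a log2 fold change of 0.43. Limma on the deposited values called 6. The sum of the 9 oligodendrocyte markers ranged from 2301 to 2514 CPM in CL WT and 1620 to 2265 in PI WT, and the ranges overlapped in KO. All 7 reactive astrocyte markers rose in both genotypes, with sums of 105 to 130 CPM in CL WT and 435 to 503 in PI WT. Of 9 microglia markers, 4 rose and 1 fell in each genotype, with medians of 0.41 in WT and 0.33 in KO. Without a trend in the prior variance, 1 NMDA or delta gene and 1 neuron marker still passed in each genotype, and in WT 1 astrocyte, 0 oligodendrocyte and 0 interneuron markers did. In KO 2 astrocyte markers and 1 interneuron marker still passed. With the animal as a replicate block, 6 neuron markers fell in WT and 6 excitatory markers in KO, 5 oligodendrocyte markers passed in each genotype (5 lower in WT, 3 lower and 2 higher in KO), and 3 interneuron markers passed in WT and 5 in KO. The block was run as a paired trimmed-mean test and as limma on the deposited values, and which gave these counts is not stated here. Limma with the block called 6614 genes of the whole table in WT and 6759 in KO, so the counts say little about the markers alone. The part of the shifts of these lists in the fall of the AMPA subunits was not tested.

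Over the 24 libraries, each gene centred within its table, Gria2 varied with Gria3 (Pearson r = 0.95), Grik2 (0.94) and Gria4 (0.91), and Gria3 with Gria4 (0.90). Grik4 and Grik5 varied together (r = 0.73) and opposite to Gria2 (-0.65 and -0.76), and Grik1 varied little with any AMPA gene (0.088 to 0.28). These are descriptions over libraries that include the PI and CL difference and come in pairs from 12 animals, on values drawn in before deposit. The genes most like Gria2 among 14211 were Cdc42bpa, Kcnip4 and Cadm2 (r = 0.98 each). Those most like Gria3 were Fgf13 and Ntrk2 (0.99 each), and those most like Gria4 were Mef2c and Acsl3 (0.97) and Sub1 (0.96). For Grik3 they were Kmt2a and Celf1 (0.90) and Srrm4 (0.88). Within groups, single libraries stood at the same end for many subunits at once. In PI KO the library of KO4 was among the 2 highest for 8 of the 9 subunits and that of KO5 among the 2 lowest for 7, while in CL KO the library of KO5, the deepest, was among the 2 highest for 7.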

How the data were processed

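Ribosome-depleted total RNA libraries (RiboCop and CORALL kits, per the labels' protocols) of mouse cortex were deposited by the authors as log2 CPM (counts scaled to library size), in 4 tables of 12 columns, per the file headers. Build mm10 comes from the submitters' processing notes. The aligner, counting, strand use, annotation and scaling are not given in the sources used here. Each table was scaled on its own, so tests stayed within a table. In each group of 6, the 2 lowest and the 2 highest deposited values of every gene were tied at the group's quartiles. The second lowest value was solved as (quartile - 0.25 × next value) / 0.75, and likewise at the top. Of recovered low values, 75.9% to 89.2% were whole reads within 0.03 read, against 10.3% to 13.4% as deposited. Either of 2 tied libraries may hold a recovered value.

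The test used the mean of the 4 inner values per group, Winsorized sums of squares with 6 degrees of freedom (12 for the interaction), and limma 3.58.1 (R 4.3.3) empirical Bayes with a trend, two-sided, with Benjamini-Hochberg adjustment over all genes. It was tested on simulated data. A mean ± SE over a group of 6 refers to this trimmed mean. The depth was taken as the smallest read total whose steps made nearly as many low values whole as the best one, a rule adjusted after larger multiples had been picked at first. Gene positions and lengths came from GENCODE on GRCm38. The main test left out the pairing of PI and CL libraries of an animal. In the replicate block of PI against CL and of the interaction, they were paired by the animal given in the labels. Deviations of paired libraries correlated at -0.158 to 0.287 in WT and -0.015 to 0.16 in KO. The labels do not say that animals came from separate litters, so p-values measure the spread between these animals.

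The subunits and gene lists were chosen with earlier results of these data known. Of each partner list the text names the genes that passed and the 2 with the smallest p, and for each subunit that passed the 3 genes most like it, of which 1 is not reported here. Alternatives were limma on the deposited values, a prior without trend, centring on the median gene, log2(CPM + 0.5), a minimum of 1 CPM, the replicate block, and the longest transcript as length. There were 0 unused columns of values.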

Additional observations from a re-analysis of the deposited data

How the results depend on the processing

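Of 45 subunit results, 45 kept their direction and call with log2(CPM + 0.5) and with a minimum of 1 CPM, and 44 with fold changes centred on the median gene, where Gria2 in PI KO against PI WT moved from -0.0017 to 0.0032. Without a trend in the prior variance 3 calls were lost (given in the report), 1 subunit passed in KO instead of 3, and 1015 and 739 genes passed over the whole tables of PI and CL in WT and KO, instead of 1537 and 1440. Limma on the deposited values, whose spread is understated by the drawn-in values, called 6459 and 6666 genes for PI against CL in WT and KO, 2311 and 2388 for KO against WT in CL and PI instead of 4 and 3, and 1940 instead of 0 in the interaction. It called 7, 6 and 1 subunits in WT, KO and the interaction instead of 3, 3 and 0. With a replicate block it called 6614, 6759, 1868, 1800 and 2216 genes in the same order, and 7, 7 and 2 subunits. For KO against WT the block shares only a number between different animals. The paired trimmed-mean test with the animal as replicate block left 26 of 27 subunit results on the same side, Grik4 in WT being the exception, and called 1 gene in the interaction.

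With the longest transcript as length, CL WT levels were 58 (Gria1), 191 (Gria2), 96.7 (Gria3), 34.2 (Gria4), 3.59 (Grik1), 14.3 (Grik2) and 12.1 (Grik5) CPM/kb. Grik2 and Grik5 then had 12.7 and 14.1 in PI WT, 13.4 and 11.9 in CL KO and 12 and 13 in PI KO. Their ranges over this length overlapped in PI WT and in PI KO. The ratio of AMPA to kainate sums was 10.1 in CL WT, 8.11 in PI WT, 10.2 in CL KO and 8.62 in PI KO. Leaving out single libraries was not run, since groups hold 6 and their end values cannot be recovered. Depth limits Grik1 and Grik4, with 77.8 to 106 reads at the median depth.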
